A study of Rattus norvegicus with 6 samples.

Results

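The genes described here shorten the side chain of bile acid precursors and join the finished bile acid to an amino acid. They were 7 genes chosen by name for that role (Amacr, Acox2, Hsd17b4, Scp2, Slc27a2, Slc27a5 and Baat), found on the arrays through their RefSeq accessions. Each was read by 1 probe, so they made up 7 of 30367 probes and 7 of 15443 named genes. Livers of 3 rats with hepatic fibrosis, induced by bile duct ligation (tying off the duct, which dams bile back into the liver), were compared with livers of 3 normal rats, with 1 Agilent array per animal. Strain, sex, age, the time after ligation and whether normal rats had a sham operation are not given in the sources used here, nor is how the 3 animals of each group were picked for the arrays. RNA came from blocks of liver tissue, so a value mixes all its cell types, and fewer cells of a type and less RNA per cell cannot be told apart in it. The 75th percentile of the signal, to which each array was scaled, was 4840 to 6401 on fibrosis arrays and 3755 to 4386 on normal arrays, and 68.8% to 78.0% of spots on fibrosis arrays and 67.2% to 70.0% on normal arrays were well above background. Precision is limited by the 3 arrays in each group.

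Hepatocytes make bile acids from cholesterol. After the sterol ring has been modified, the intermediate still carries the long side chain of cholesterol, which is activated with coenzyme A and cut back in peroxisomes by a round of beta-oxidation. The shortened acid is then bound to taurine or glycine, which makes it a bile salt that dissolves in bile. Slc27a2 (a very long chain acyl-CoA synthetase) activates the precursor, Amacr (a racemase) turns the side chain into the form that the next enzyme accepts, Acox2 (the branched chain acyl-CoA oxidase) oxidises it, Hsd17b4 (the D-bifunctional protein) hydrates and dehydrogenates it, and Scp2, through its long form, provides the thiolase that cuts it. Slc27a5 (bile acyl-CoA synthetase) activates bile acids that return from the gut. Baat joins activated bile acids, newly made or returned, to the amino acid.

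The bases before the start of 4 of these genes are shown because they hold a motif of nuclear receptors that act in hepatocytes. All 7 genes had a promoter in the RefSeq table (build GRCr8), searched on both strands over 250 bases before and 50 after the start. The nuclear receptor core motif AGGTCA was present in 3 of the 7 (Amacr, Hsd17b4 and Slc27a2) and in 16.2% of all 33469 promoters. The HNF4-type motif CAAAGTNCA was present in 1 of the 7 (Baat) and in 1.24% of promoters. CCAAT was present in 1 (Acox2, on both strands) and in 37.5% of promoters. TTGCGCAA and the palindromic HNF1 motif were in none of these 7 windows. Both are rare, in 0.17% of promoters and in 1 of 33469. A match describes the letters and not a bound site. The 3 genes with AGGTCA are also the 3 that passed the expression test below in the main fit, an overlap that was not tested. With other settings between 0 and 7 of the 7 passed. The 250 bases before each start follow, 5′ to 3′ in the direction of the gene, with the match in capitals. In Slc27a2 the capitals are that core motif read from the opposite strand, TGACCT.
Amacr (chr2:61673085-61673334, plus strand): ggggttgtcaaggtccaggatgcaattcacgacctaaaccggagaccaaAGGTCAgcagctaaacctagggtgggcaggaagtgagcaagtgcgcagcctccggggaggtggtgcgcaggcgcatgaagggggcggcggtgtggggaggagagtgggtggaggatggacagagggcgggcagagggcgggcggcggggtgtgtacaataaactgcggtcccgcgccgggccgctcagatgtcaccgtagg
Hsd17b4 (chr18:45515177-45515426, plus strand): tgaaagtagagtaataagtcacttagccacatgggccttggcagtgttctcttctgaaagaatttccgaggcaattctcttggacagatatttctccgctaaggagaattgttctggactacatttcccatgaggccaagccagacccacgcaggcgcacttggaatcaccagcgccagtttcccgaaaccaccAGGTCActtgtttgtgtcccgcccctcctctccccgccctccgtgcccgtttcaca
Slc27a2 (chr3:134257851-134258100, plus strand): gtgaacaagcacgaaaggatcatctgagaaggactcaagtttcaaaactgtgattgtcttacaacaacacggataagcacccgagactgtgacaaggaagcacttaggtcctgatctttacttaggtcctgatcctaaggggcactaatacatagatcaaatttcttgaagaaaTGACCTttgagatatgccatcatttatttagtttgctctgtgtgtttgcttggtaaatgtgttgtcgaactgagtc
Baat (chr5:68656138-68656387, minus strand): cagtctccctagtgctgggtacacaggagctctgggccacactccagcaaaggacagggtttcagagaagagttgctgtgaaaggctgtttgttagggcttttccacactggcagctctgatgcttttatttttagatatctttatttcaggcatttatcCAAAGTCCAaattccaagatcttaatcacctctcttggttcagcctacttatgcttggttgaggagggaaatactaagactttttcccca

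All 7 genes had a lower mean in fibrotic than in normal liver, by 1.52-fold (Slc27a5) to 2.54-fold (Amacr). Amacr, Hsd17b4 and Slc27a2 fell, with each fibrotic liver well below each normal liver. The differences of Acox2, Scp2, Baat and Slc27a5 did not pass the test. A difference below 0 was also found for 56.3% of all probes tested and 53.6% of named genes tested. Lower calls numbered 3 of 7, against 6.79% of the 19731 probes tested (limma, adjusted p under 0.05, adjusted over all these probes). The arrays of the groups did not overlap for 6 of the 7, with every fibrosis array below every normal array, which held for 19.3% of probes. It also held for 16 of the 20 hepatocyte markers and 15 of the 19 other peroxisomal beta-oxidation genes tested, both described below. The sum of the 7 linear signals, in multiples of the array's 75th percentile, lay between 49.2 and 53.5 on fibrosis arrays, against 85.5 and 107 on normal arrays. The plot of values by array shows the 7 genes side by side.

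**Figure D1:**
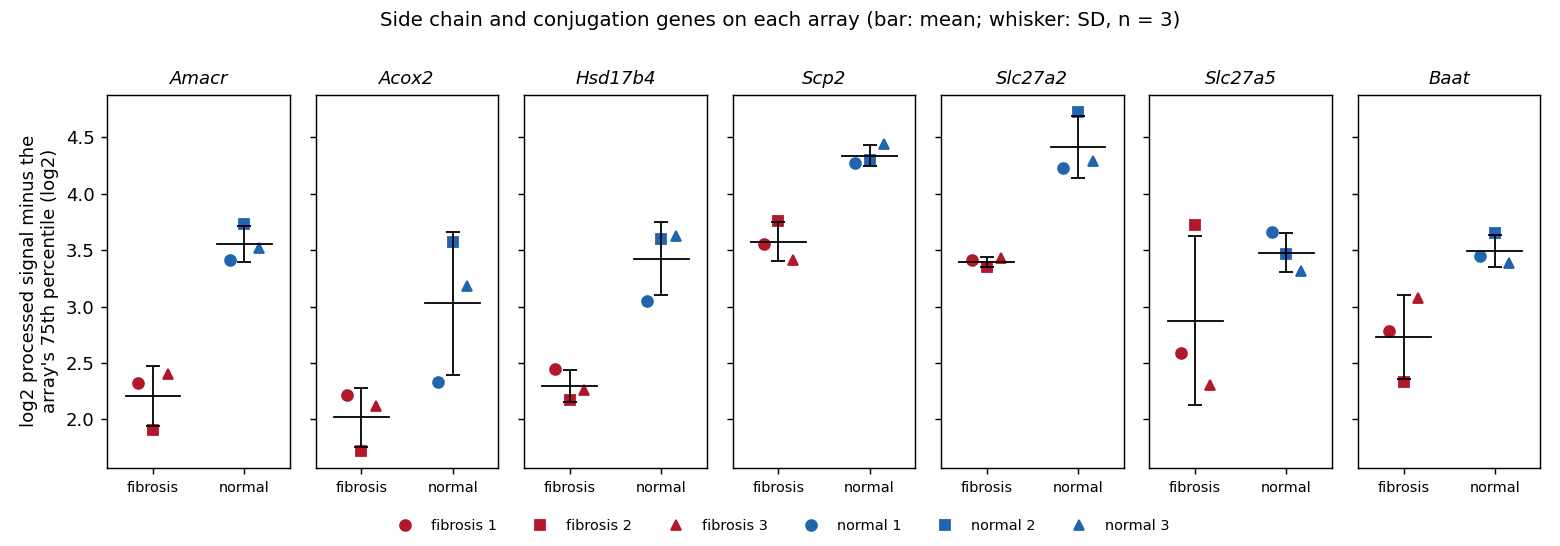
Log2 processed signal minus the array's 75th percentile (vertical axis) for the 7 genes on the 3 fibrosis arrays and the 3 normal arrays; symbols mark the array, the bar is the mean and the whisker the SD. The fibrosis points lie below the normal points for every gene except Slc27a5, where fibrosis array 2 (3.72) lies above the highest normal array (3.66).

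Slc27a2, which starts the sequence by activating the precursor, was the most even of the 7 in fibrotic liver. Its log2 values, here and below relative to the array's 75th percentile, were 3.41, 3.35 and 3.43 on fibrosis arrays 1, 2 and 3, against 4.23, 4.73 and 4.29 on normal arrays 1, 2 and 3. The fibrosis arrays spanned 0.08, and the nearest arrays of the groups were 0.80 apart. It fell by 1.02 on the log2 scale (SE 0.24, limma adjusted p = 0.0214), or 2.02-fold. Leaving out fibrosis array 1, normal array 2 or normal array 3 ended the call (-1.02, -0.86 and -1.08, adjusted p = 0.0547, 0.106 and 0.0771). This probe had a single spot, so it has no measure of spot-to-spot error.

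Amacr showed the largest difference of the 7. Its values were 2.32, 1.91 and 2.40 in fibrotic livers, against 3.41, 3.73 and 3.52 in normal livers. The nearest arrays of the groups were 1.01 apart, more than the span within either group (0.50 in fibrosis and 0.32 in normal). It fell by 1.34 on the log2 scale (SE 0.25, limma adjusted p = 0.00736), and 3.85% of all tested probes had a lower difference. The call was kept when any single array was left out.

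Hsd17b4 followed with 2.45, 2.17 and 2.26 in fibrotic livers, against 3.05, 3.60 and 3.62 in normal livers. All 3 fibrotic livers were below normal array 1, the lowest of its group. It fell by 1.13 (SE 0.26, limma adjusted p = 0.0176), or 2.19-fold. Leaving out normal array 2 or normal array 3 ended the call (-1.04 and -1.03, adjusted p = 0.0862 and 0.0971).

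Acox2, the oxidase between these 2 enzymes in the sequence, gave 2.21, 1.72 and 2.12 in fibrotic livers, against 2.33, 3.57 and 3.19 in normal livers. Normal array 1 stood close to the fibrotic livers, 0.12 above the highest of them, and the normal livers spanned 1.24. The difference of -1.01 (SE 0.35, 95% interval -1.82 to -0.21) did not pass (limma adjusted p = 0.0825). Without normal array 1 it was -1.36 and passed (adjusted p = 0.0313).

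Scp2 had the most spots, 10 on each array. Its values were 3.55, 3.76 and 3.41 in fibrotic livers, against 4.27, 4.30 and 4.44 in normal livers, with 0.51 between the nearest arrays of the groups. The median SD among its spots was 0.10. Its difference of -0.76 (SE 0.23, 95% interval -1.29 to -0.24) stood at the threshold (limma adjusted p = 0.0505). It passed when each named gene had 1 row in the fit (adjusted p = 0.0375) and without fibrosis array 2 (-0.86, adjusted p = 0.0423). Scp2 also encodes a short lipid carrier form that lacks the thiolase, and the files do not say which transcripts its probe detects.

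The conjugating enzymes diverged between fibrotic animals. Baat gave 2.78, 2.33 and 3.08 on fibrosis arrays 1, 2 and 3, against 3.44, 3.65 and 3.38 in normal livers. Slc27a5 gave 2.59, 3.72 and 2.31 on the same fibrosis arrays, against 3.66, 3.46 and 3.31 in normal livers. In fibrosis array 2, Baat was thus at its lowest of all 6 arrays and Slc27a5 at its highest.

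The difference of Baat was -0.76 (SE 0.27, 95% interval -1.38 to -0.15, limma adjusted p = 0.0863), and it passed without fibrosis array 3 (-0.94, adjusted p = 0.0361). Slc27a5 differed by -0.60 (SE 0.38, 95% interval -1.47 to 0.26, adjusted p = 0.316), with an SD of 0.75 in fibrosis and 0.18 in normal liver. Without fibrosis array 2 Slc27a5 stood at -1.03 and passed (adjusted p = 0.0316). Both spots of Slc27a5 on fibrosis array 2 were high, at 3.70 and 3.74, and 1 of them was marked as irregular by the scanner software.

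Set against each gene's mean in normal liver, fibrosis array 2 stood at -1.65 for Amacr, -1.31 for Acox2, -1.25 for Hsd17b4, -1.06 for Slc27a2 and -1.16 for Baat on the log2 scale, and for each of these 5 it was the lowest of the 3 fibrotic livers. It was the highest of them for Scp2, at -0.58, and for Slc27a5, at 0.25. Tf (transferrin), a secreted hepatocyte protein named here after its values were seen, also stood high on that array, with 2.45, 4.28 and 1.46 on fibrosis arrays 1, 2 and 3, against 3.90, 3.78 and 3.70 in normal livers. Alb (albumin) gave 3.14, 3.63 and 2.18, against 3.96, 3.84 and 3.66 in normal livers. Most hepatocyte markers did not exceed normal liver on that array. For 16 of the 20 described below, every fibrosis array lay below every normal array. The median of that list was 3.56, 3.92 and 3.20 on fibrosis arrays 1, 2 and 3, against 4.27, 4.41 and 4.37 in normal livers. What sets fibrosis array 2 apart for these genes was not tested.

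**Figure D2:**
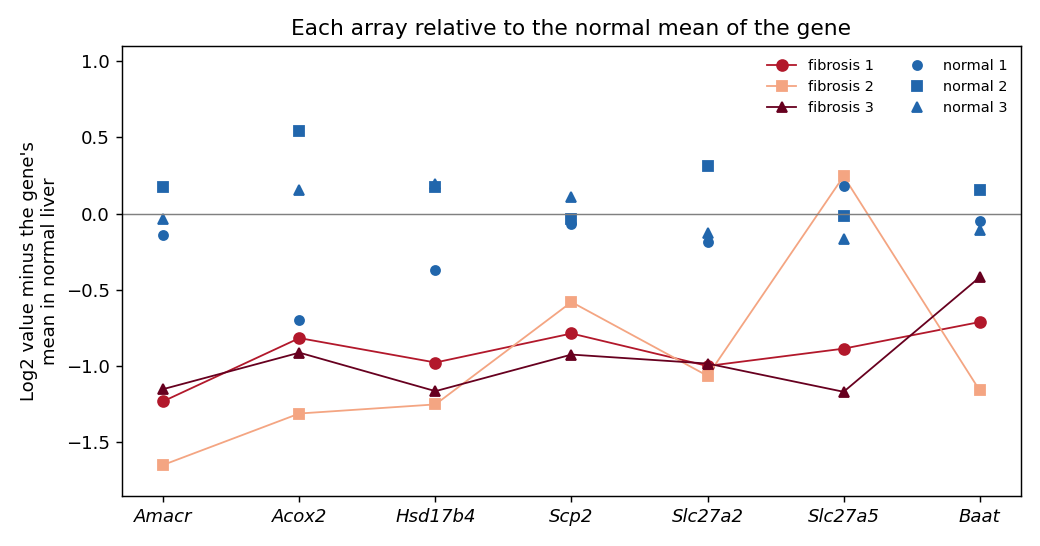
Log2 value of each array minus the gene's mean in normal liver (vertical axis) for the 7 genes; lines join the values of 1 fibrotic liver and blue symbols are normal livers. Fibrosis array 2 runs lowest for Amacr, Acox2, Hsd17b4, Slc27a2 and Baat and highest for Slc27a5 (0.25).

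The 7 probes were among the brightest on the arrays, and brightness moved with the difference. Between 0.441% (Scp2) and 6.54% (Acox2) of tested probes had a higher mean signal than one of the 7. Of the 1291 probes at least as bright as Acox2, 89.7% had a difference below 0 and 43.5% had all fibrosis arrays below all normal arrays. Among these bright probes 11.9% were called lower and 0.31% higher, and their median difference was -0.42, against -0.10 for all probes and -1.01 for the 7 genes. Most spots of the 7 genes were marked as irregular by the scanner software, including both spots of Acox2 on all 6 arrays. Of all spots, 18.8% to 33.0% were marked on fibrosis arrays and 24.0% to 35.2% on normal arrays. Slc27a5 had a marked spot on fibrosis array 2 only, and the spot of Slc27a2 was marked on fibrosis arrays 2 and 3 and normal array 2. The part of brightness in these differences was not tested.

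How many genes passed changed with the scaling of the arrays. All 7 differences stayed below 0 with each of the other scalings. With the array median 6 of the 7 were called, with quantile normalization or cyclic loess 1 was (Amacr, at -0.97 and -0.94, limma adjusted p = 0.0475 and 0.0492), and with scaling to the E1A control probes 0 were, where 1 had an unadjusted p under 0.05. Over these 4 scalings the difference ran from -1.70 to -0.94 for Amacr, from -1.49 to -0.73 for Hsd17b4, from -1.37 to -0.50 for Slc27a2 and from -0.96 to -0.17 for Slc27a5. The median of all probes was -0.45, -0.10, -0.02 and 0.21 with the array median, quantile normalization, cyclic loess and E1A scaling in this order. Lower calls among all 19731 probes tested moved too, from 1339 in the main fit to 3884 under the array median and 357 under E1A. Cyclic loess gave 1109 lower probes and quantile normalization gave 1417.

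**Figure D3:**
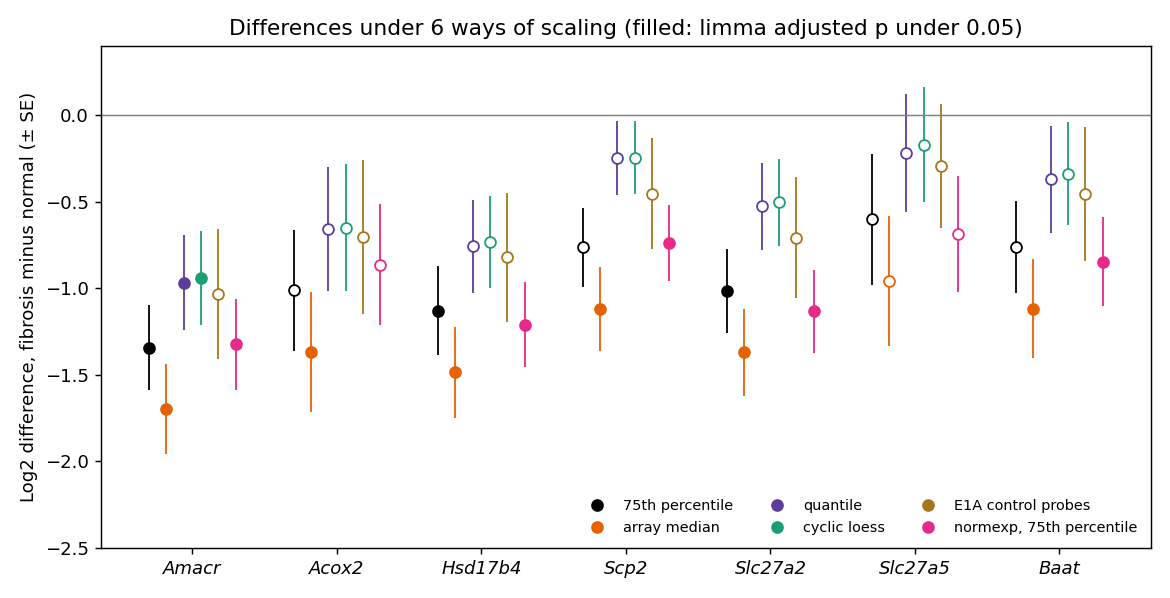
Log2 difference, fibrosis minus normal, with its SE (vertical axis) for the 7 genes under 6 ways of scaling or background correction; filled points have a limma adjusted p under 0.05. Every point lies below 0, with the array median lowest and quantile normalization, cyclic loess and the E1A control probes nearest to 0.

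The place of an array on the slide was partly tied to the groups. Fibrosis array 1 shared the first row of the slide with the 3 normal arrays, and fibrosis arrays 2 and 3 lay in the second row. Within the first row the difference was -1.23 for Amacr, -0.98 for Hsd17b4, -1.0 for Slc27a2, -0.79 for Scp2, -0.82 for Acox2, -0.89 for Slc27a5 and -0.71 for Baat. With slide row as a covariate, a fit in which fibrosis array 1 alone stands for its group, 0 of the 7 passed (limma adjusted p between 0.115 and 0.461) and 3 had an unadjusted p under 0.05. Of 25 called genes named below from the pathway and marker lists, 5 were still called in that fit (Decr2, Slc27a3, Abcc3, Krt7 and Sctr).

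Hepatocyte markers had lower values in fibrotic liver as well, and the differences of the 7 genes were set against them within each array, where a scaling that shifts the whole array cancels. All 20 markers on the list were tested and all 20 had a difference below 0, with a median of -0.79 and 4 called lower. Of all probes tested 56.3% were below 0 and 6.79% were called lower. For the 1291 probes at least as bright as Acox2 these shares were 89.7% and 11.9%. Their linear signals summed to between 216 and 272 times the 75th percentile on fibrosis arrays, against 390 and 407 on normal arrays. Apoc3 (an apolipoprotein) fell by 1.05 (SE 0.22, limma adjusted p = 0.0140) and Fabp1 (the liver fatty acid binding protein) fell by 1.0 (SE 0.26, adjusted p = 0.0304), while Alb stood at -0.84 (SE 0.37, adjusted p = 0.162). Under quantile normalization, cyclic loess or E1A scaling 0 of the 20 were called by limma. Leaving out any 1 normal array also ended the calls of Apoc3 (adjusted p between 0.0554 and 0.0750) and Fabp1 (between 0.0914 and 0.120).

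Taken to the median of the hepatocyte markers on the same array, Amacr stood at -1.24, -2.01 and -0.80 in fibrotic livers, against -0.86, -0.68 and -0.85 in normal livers, a difference of -0.55. The gap of Scp2 differed by 0.03 and that of Baat by 0.03. The differences were -0.34 for Hsd17b4, -0.23 for Slc27a2, -0.22 for Acox2 and 0.19 for Slc27a5. The groups overlapped for all 7, and none of the 7 exact two-sided permutation tests gave a p under 0.3, where 0.1 is the smallest p that 3 arrays against 3 allow. This depended on the background correction and on single arrays. With normexp, a background correction of the median signals, the differences were -0.74 for Amacr and -0.63 for Hsd17b4 (exact p = 0.2 each), and for Slc27a2 -0.55 without overlap (exact p = 0.1). Overlap also ended without fibrosis array 3 for Amacr (-0.83) and Slc27a2 (-0.42), and without normal array 1 for Hsd17b4 (-0.49). Without fibrosis array 2 the differences of these 3 genes were -0.22, -0.02 and -0.10 for Amacr, Slc27a2 and Hsd17b4.

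**Figure D4:**
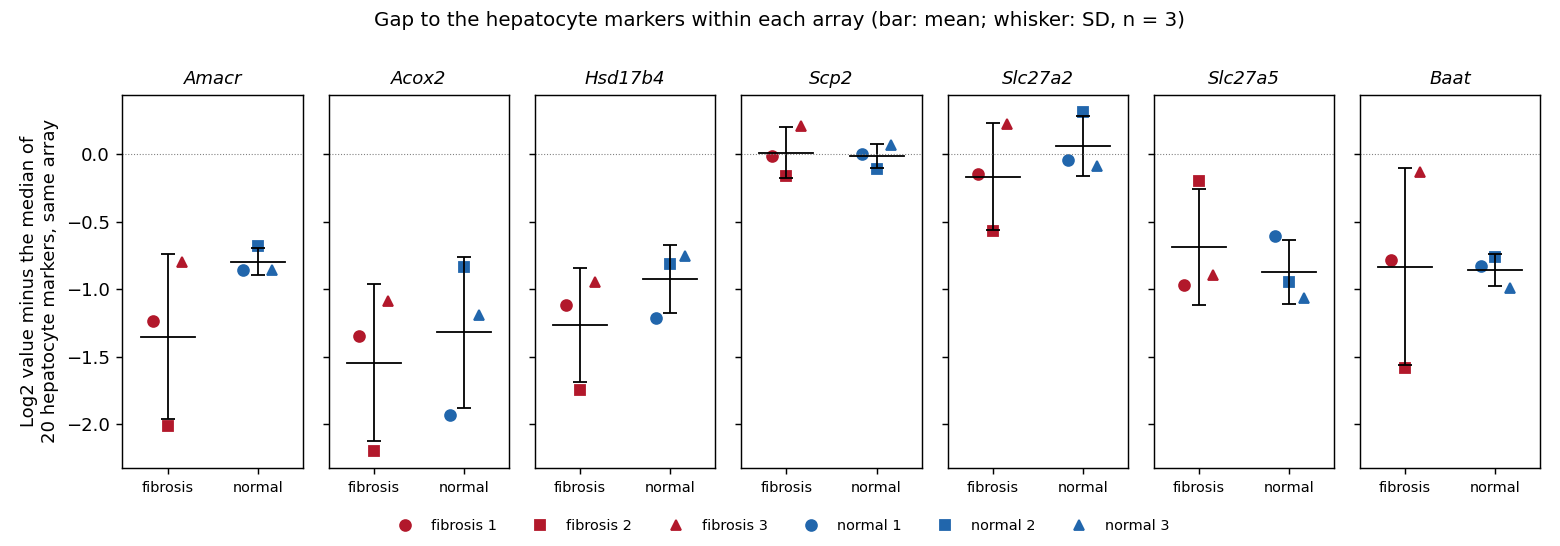
Log2 value of each gene minus the median of the 20 hepatocyte markers on the same array (vertical axis) for the 3 fibrosis and 3 normal arrays; the bar is the mean and the whisker the SD. The groups overlap in all 7 panels at this setting, and the fibrosis mean lies farthest below the normal mean for Amacr (-1.35 against -0.80).

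Markers of bile duct cells and of scar-forming cells rose. Of all 10864 named genes tested, 14.7% were called higher and 7.62% lower. Of 11 cholangiocyte (bile duct cell) markers tested, 9 rose and 0 fell, with a median of 3.89, and their summed signal was 12.4 to 16.4 in fibrosis, against 1.56 to 1.89 in normal liver. Krt7 (a bile duct keratin) rose by 5.65 ± 0.53 (SE, limma adjusted p = 0.000306), with 3 of 3 fibrosis arrays and 1 of 3 normal arrays above background, and Sctr (the secretin receptor) by 5.47 ± 0.44 (adjusted p = 0.000146). Of 12 stellate cell and myofibroblast markers 8 rose and 0 fell (median 2.09, summed signal 24.0 to 45.9 in fibrosis, against 9.16 to 13.8 in normal). Of 12 macrophage markers 1 rose, with a median of 0.55 and a summed signal of 47.4 to 49.5 in fibrosis, against 37.1 to 41.7 in normal. Of 5 endothelial markers 0 were called, with a median of -0.27. Of 6 lymphocyte markers 1 was called lower, with a median of -0.43. The part of cell composition in the values of the 7 genes was not tested.

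Other enzymes of peroxisomal beta-oxidation lay lower too, some far more than the 7. Of 19 tested, 9 fell and 0 rose, all 19 had a difference below 0, and the median was -0.80, against -0.07 for all 10864 named genes tested, of which 7.62% were called lower and 14.7% higher. Ehhadh (the L-bifunctional enzyme, the counterpart of Hsd17b4 for straight chains) gave 1.35, -1.45 and 0.32 in fibrotic livers, against 2.76, 3.25 and 3.35 in normal livers. It fell by 3.04 (SE 0.62, limma adjusted p = 0.0117), Decr2 (a peroxisomal dienoyl-CoA reductase) by 2.48 (SE 0.29, adjusted p = 0.000872) and Hacl1 (a lyase of alpha-oxidation) by 1.71 (SE 0.26, adjusted p = 0.00290), where its other probe gave -2.0. The calls of Ehhadh, Decr2 and Hacl1 were kept under all 4 other scalings, while falls on this list numbered between 3 (E1A scaling) and 16 (array median).

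Acaa1b (a peroxisomal thiolase with a near-identical copy, Acaa1a, so that their signals may mix) fell by 1.21 (SE 0.22, limma adjusted p = 0.00680). Abcd3, the peroxisomal membrane transporter that takes in bile acid precursors, gave 3.08, 3.02 and 3.16 in fibrotic livers, against 4.01, 4.02 and 4.26 in normal livers. It fell by 1.01 (SE 0.22, adjusted p = 0.0161), about as much as Slc27a2 and Hsd17b4. Like theirs, the calls of Acaa1b and Abcd3 were lost with quantile normalization, cyclic loess and E1A scaling, and that of Abcd3 also without normal array 1, 2 or 3 (adjusted p = 0.0515, 0.0637 and 0.0977).

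The machinery that brings such enzymes into peroxisomes was lower in part. Of 16 import and assembly genes, 6 fell and 0 rose, with a median of -0.88. The shares over all named genes tested, 7.62% called lower and 14.7% higher, belong beside this list and those that follow. Pex5, the receptor for the targeting signal at the end of most peroxisomal matrix enzymes, gave 0.01, -0.13 and -0.84 in fibrotic livers, against 1.07, 1.30 and 1.18 in normal livers, and fell by 1.5 (SE 0.29, limma adjusted p = 0.00833, or 0.0603 with E1A scaling). Its other probe gave -1.70. Pex11a, which acts in peroxisome division, fell by 1.46 (SE 0.28, adjusted p = 0.00803). The falls numbered between 1 (E1A scaling) and 11 (array median).

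Enzymes that act before side chain shortening split in direction. Of 9 sterol ring and hydroxylation enzymes tested, 5 fell and 2 rose, with a median of -0.94. Cyp39a1, an oxysterol hydroxylase, fell by 2.37 (SE 0.47, limma adjusted p = 0.00973), with 2 of 3 fibrosis arrays and 3 of 3 normal arrays above background, and Hsd3b7, which oxidises the ring, by 1.46 (SE 0.33, adjusted p = 0.0173, or 0.130 with E1A scaling). The call of Hsd3b7 was also lost without normal array 2 or 3 (adjusted p = 0.0657 and 0.0812). Cyp7b1, a hydroxylase of the alternative pathway, rose by 2.34 ± 0.39 (SE, adjusted p = 0.00457) and Ch25h, which makes an oxysterol, by 1.26 ± 0.24 (SE, adjusted p = 0.00823, or 0.0514 without normal array 3). With marked spots left out both calls were lost (1.74 for Cyp7b1 and 0.67 for Ch25h, limma adjusted p = 0.119 and 0.573).

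Genes that supply the amino acid for conjugation were also split. Of 5 tested, 2 fell and 1 rose, with a median of -0.88. Cdo1 (cysteine dioxygenase, a first step towards taurine) gave 1.51, 1.19 and 0.83 in fibrotic livers, against 2.37, 2.74 and 2.90 in normal livers, and fell by 1.49 (SE 0.28, limma adjusted p = 0.00745, or 0.0660 with E1A scaling). Agxt, which makes glycine from glyoxylate, fell by 1.31 (SE 0.33, adjusted p = 0.0280), a call lost with cyclic loess (0.0577), E1A scaling (0.184), and without fibrosis array 2 (0.0572), normal array 2 (0.0980) or normal array 3 (0.126). Slc6a6, the taurine uptake carrier, rose by 1.65 ± 0.36 (SE, adjusted p = 0.0157), a call lost without fibrosis array 1 (0.0534) or normal array 1, 2 or 3 (0.0601, 0.0540 and 0.0552).

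Relatives of Slc27a2 and Slc27a5 did not lie below 0. Of 3 relatives tested 1 rose and 0 fell, with a median of 0.98. Slc27a3, whose probe did not stand clear of background in normal liver, rose by 3.45 on the log2 scale (limma adjusted p = 0.000237). That difference ran from 3.10 to 3.76 over the other scalings and from 3.19 to 3.64 with 1 array left out. Its size is uncertain because the normal values lay at background. The probe entered the test only through the fibrosis arrays. With probes above background on all 6 arrays, higher calls among these relatives numbered 0. Slc27a4 stood at 0.98 (SE 0.48, adjusted p = 0.202, or -0.47 with marked spots left out, which drops fibrosis array 3), and Slc27a1 at 0.08 (SE 0.24, adjusted p = 0.854). Slc27a6 was too dim on all 6 arrays to be tested.

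Downstream, the carriers of the finished bile salts were lower in most cases. Of 8 bile acid carriers and exporters tested, 6 fell and 1 rose, with a median of -1.47. Slco1a1 (a hepatocyte uptake carrier) fell by 1.86 (SE 0.34, limma adjusted p = 0.00705) and Abcc2 (an exporter into bile) by 1.75 (SE 0.29, adjusted p = 0.00420), while Abcc3 (an exporter towards blood) rose by 2.35 ± 0.49 (SE, adjusted p = 0.0132), with 3 of 3 fibrosis arrays and 2 of 3 normal arrays above background. Of 8 regulators, 3 fell and 0 rose, with a median of -0.79. Nr0b2 (SHP, which represses the synthesis of bile acids) fell by 2.53 (SE 0.49, adjusted p = 0.00922), Ppara (a receptor that drives peroxisomal genes) by 1.07 (SE 0.23, adjusted p = 0.0150) and Nr1h4 (FXR, the bile acid receptor that drives Baat and Slc27a5) by 1.0 (SE 0.22, adjusted p = 0.0150), where its other probe gave -0.65 (adjusted p = 0.198). The calls of Ppara and Nr1h4 were lost with E1A scaling (0.194 and 0.218) and without normal array 2 (0.0680 and 0.0698) or normal array 3 (0.0911 and 0.0888).

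**Figure D5:**
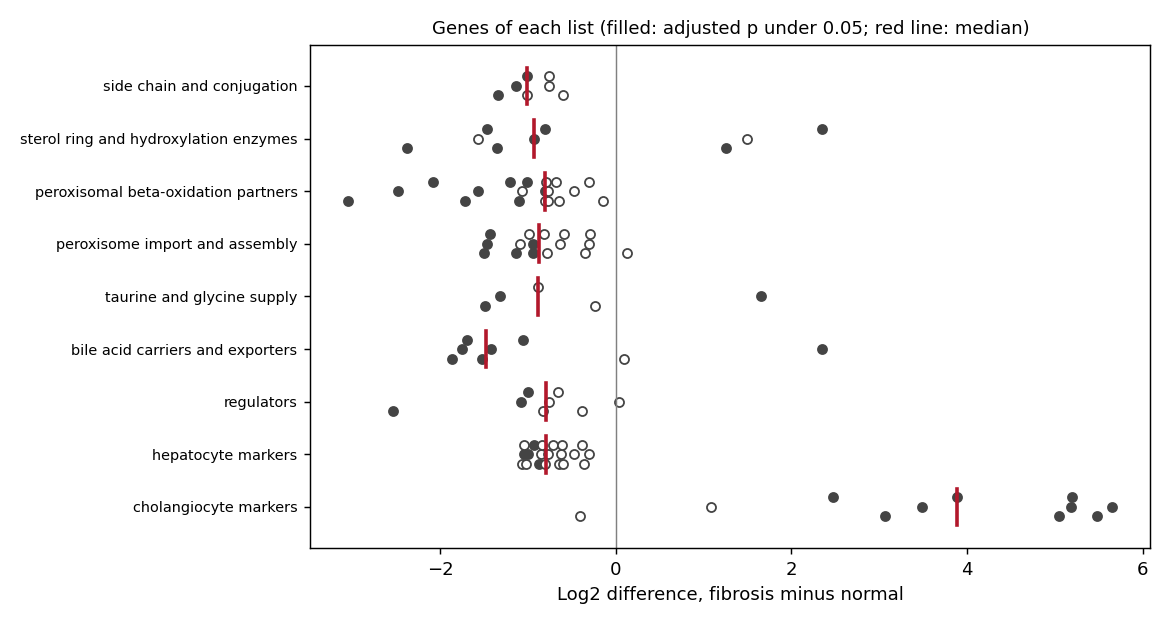
Log2 difference, fibrosis minus normal (horizontal axis), of each tested gene of 9 gene lists; filled points have a limma adjusted p under 0.05 and the red line is the list's median. The side chain and conjugation genes lie between -1.34 and -0.60 and the hepatocyte markers between -1.07 and -0.30, while the cholangiocyte markers lie mostly above 2.

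The genes whose pattern over the 6 arrays was most like each of the 7 did not include another of the 7 among the nearest 2. Likeness was the root mean square difference of log2 values, each gene centred on its own mean, among 9844 other named genes above background on all 6 arrays, and is a description. Nearest were Tmem53 and Slc35a3 for Amacr (0.09 each), Ctsc and Nxpe4 for Acox2 (0.10 and 0.14), Eci1 and Hsd11b2 for Hsd17b4 (0.08 each), Tial1 and Ufsp2 for Scp2 (0.05 each), As3mt and Ccl5 for Slc27a2 (0.05 and 0.09), and Dnajc3 and Bhmt2 for Baat (0.07 and 0.08). Slc27a5 lay nearest to Fau, which encodes a ribosomal protein fused to a ubiquitin-like one (0.07), and to Cox6c-ps1, a pseudogene whose probe may read its parent gene (0.09). Among the 7 themselves, Hsd17b4 and Slc27a2 were closest to each other (0.19), and Hsd17b4 was at rank 20 of the genes nearest to Acox2. For Slc27a5 the nearest of the 7 was Scp2, at rank 987.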

How the data were processed

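Total RNA from liver tissue of 6 rats was labelled with Cy3 and hybridised to 6 Agilent arrays, 1 per animal, per the labels' protocols. What the authors deposited are linear intensities of spots from Agilent Feature Extraction 11.5.1.1, with background subtracted and trends within the array removed in the processed signal, per the file headers. No scaling between arrays is recorded there. The slide and the scan were the same for all 6 arrays. The groups are separate animals per the design text, and replicate numbers follow the order of the records and pair nothing.

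The log2 of the processed signal was taken and the 75th percentile of its array, over 58717 non-control spots, subtracted. Spots of 1 probe were averaged. Spots marked by the scanner software as non-uniform or as population outliers were kept, since 5 of the 7 genes otherwise had too few arrays. No spot was saturated. A probe was tested if at least 0.5 of its spots were well above background on every array of at least 1 group. Probes were named by unversioned accession through RefSeq's table of rat genes (GRCr8), which named 18355 of 30367 probes. Where a gene had several probes, the one with the highest mean stood for it. The fit of fibrosis minus normal used lmFit and eBayes of limma 3.58.1 (R 4.3.3). P-values of the 19731 tested probes were adjusted together by Benjamini and Hochberg, with calls at an adjusted p under 0.05. The fit was tested on simulated data with 200 changed probes, where it missed nearly all changes of log2 size 1. In the data themselves 1339 probes were called lower and 2439 higher. With so many more changes the adjusted threshold is less strict, so the simulated recovery does not carry over to these 7 genes. A gene that was not called may still differ.

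The genes, lists and tests were chosen with earlier results of these data known. Genes named outside the 7 follow a rule: up to 2 called increases and 2 called decreases of largest size per list, completed by the smallest p, plus Alb, and the 2 genes nearest to each of the 7. Abcd3 and Tf were named after their values were seen. Alternatives were other scalings, background correction, filters, eBayes settings, array weights, slide row and leaving out arrays. Promoter sequences are RefSeq's (GRCr8). Protein sequences were not used here.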

Additional observations from a re-analysis of the deposited data

How the results depend on the processing

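All 7 log2 differences stayed below 0 wherever they had a value, but the number of calls ran between 0 and 7. Only Scp2 and Slc27a5 had enough arrays with marked spots left out (-0.97 and -1.19, limma adjusted p = 0.485 and 0.346, when all probes had a median of -0.58). With E1A scaling and with slide row as a covariate 0 of the 7 were called by limma, and 1 and 3 of the 7 had an unadjusted p under 0.05. Why calls differed between settings was not tested. No paired analysis was possible because the titles number the rats 1 to 6 and no number pairs a fibrosis animal with a normal one. The number of arrays and the brightness of these probes limit the precision. Values in parentheses are log2 differences with limma adjusted p, and only results that moved are given.

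With quantile normalization, lower calls numbered 1 among side chain and conjugation genes, 3 among sterol ring enzymes, 5 among peroxisomal oxidation partners, 0 among hepatocyte markers and 2 among lymphocyte markers. Higher calls numbered 3 among macrophage markers. Hsd17b4 (-0.76, 0.0924) and Slc27a2 (-0.53, 0.202) lost the call. With the array median, lower calls numbered 6 among side chain and conjugation genes, 3884 among all probes, 16 among peroxisomal oxidation partners, 11 among peroxisome import genes, 5 among regulators, 15 among hepatocyte markers, 1 among endothelial markers and 2 among lymphocyte markers. Acox2 (-1.37, 0.0204), Scp2 (-1.12, 0.0113) and Baat (-1.12, 0.0207) passed. With cyclic loess, lower calls numbered 1 among side chain and conjugation genes, 3 among sterol ring enzymes, 5 among peroxisomal oxidation partners, 1 among taurine and glycine genes and 0 among hepatocyte markers. Higher calls numbered 4 among macrophage markers. Hsd17b4 (-0.73, 0.104) and Slc27a2 (-0.50, 0.228) lost the call. With E1A scaling, lower calls numbered 0 among side chain and conjugation genes, 357 among all probes, 1 among sterol ring enzymes, 3 among peroxisomal oxidation partners, 1 among peroxisome import genes, 0 among taurine and glycine genes, 3 among bile acid carriers, 1 among regulators, 0 among hepatocyte markers and 0 among lymphocyte markers. Higher calls numbered 2 among macrophage markers. Amacr (-1.04, 0.0976), Hsd17b4 (-0.82, 0.192) and Slc27a2 (-0.71, 0.237) lost the call. With normexp on median signals, lower calls numbered 5 among side chain and conjugation genes, 3 among sterol ring enzymes, 1 among endothelial markers and 0 among lymphocyte markers. Higher calls numbered 2 among macrophage markers. Scp2 (-0.74, 0.0470) and Baat (-0.85, 0.0491) passed. The difference in the gap to the hepatocyte markers was -0.74 for Amacr, -0.28 for Acox2, -0.63 for Hsd17b4, -0.15 for Scp2, -0.10 for Slc27a5, -0.55 for Slc27a2 and -0.26 for Baat. With no filter on dim probes, lower calls numbered 799 among all probes, 3 among sterol ring enzymes, 3 among peroxisome import genes, 1 among taurine and glycine genes, 1 among hepatocyte markers and 0 among lymphocyte markers. Slc27a2 (-1.02, 0.0534) lost the call. With trend and robust settings of eBayes, lower calls numbered 6 among side chain and conjugation genes, 14 among peroxisomal oxidation partners, 11 among hepatocyte markers and 1 among endothelial markers. Higher calls numbered 3 among macrophage markers. Acox2 (-1.01, 0.0409), Scp2 (-0.76, 0.00963) and Baat (-0.76, 0.0330) passed. With array weights, lower calls numbered 7 among side chain and conjugation genes, 3580 among all probes, 16 among peroxisomal oxidation partners, 10 among peroxisome import genes, 6 among regulators, 15 among hepatocyte markers, 1 among endothelial markers and 2 among lymphocyte markers. Higher calls numbered 6 among macrophage markers and 1 among lymphocyte markers. Acox2 (-1.02, 0.0218), Scp2 (-0.79, 0.00603), Slc27a5 (-0.75, 0.0328) and Baat (-0.74, 0.0137) passed. With 1 row per named gene, lower calls numbered 1 among endothelial markers. Scp2 (-0.76, 0.0375) passed. With slide row as a covariate, lower calls numbered 0 among side chain and conjugation genes, 178 among all probes, 0 among sterol ring enzymes, 1 among peroxisomal oxidation partners, 0 among peroxisome import genes, 0 among taurine and glycine genes, 1 among bile acid carriers, 0 among regulators and 0 among hepatocyte markers. Higher calls numbered 1020 among all probes, 0 among sterol ring enzymes, 0 among taurine and glycine genes, 5 among stellate cell markers and 0 among macrophage markers. Amacr (-1.23, 0.115), Hsd17b4 (-0.98, 0.210) and Slc27a2 (-1.0, 0.185) lost the call. With marked spots left out, lower calls numbered 0 among side chain and conjugation genes, 332 among all probes, 1 among sterol ring enzymes, 2 among peroxisomal oxidation partners, 1 among peroxisome import genes, 1 among bile acid carriers, 1 among regulators, 0 among hepatocyte markers and 0 among lymphocyte markers. Higher calls numbered 522 among all probes, 0 among sterol ring enzymes, 0 among bile acid carriers, 4 among cholangiocyte markers, 1 among stellate cell markers and 0 among macrophage markers. The gap difference was 0.11 for Slc27a2, on 1 fibrosis array and 2 normal arrays and so with no test, and Slc27a4, without fibrosis array 3, turned to -0.47 (0.713). With marked spots left out but the 75th percentile taken over all spots, an alternative chosen after seeing the data, lower calls numbered 0 among side chain and conjugation genes, 610 among all probes, 1 among sterol ring enzymes, 2 among peroxisomal oxidation partners, 3 among peroxisome import genes, 2 among bile acid carriers and 0 among hepatocyte markers. Higher calls numbered 4 among cholangiocyte markers. At an adjusted p under 0.01, lower calls numbered 1 among side chain and conjugation genes and 385 among all probes. Higher calls numbered 1422 among all probes. With probes above background on all 6 arrays, higher calls numbered 0 among other Slc27 genes and 0 among bile acid carriers. Taken to the median of all probes above background on every array, the gap difference was -1.43 for Amacr, -1.10 for Acox2, -1.22 for Hsd17b4, -0.85 for Scp2, -0.69 for Slc27a5, -1.10 for Slc27a2 and -0.85 for Baat.

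Leaving out each array in turn gave log2 differences of -1.36 to -0.74 for Acox2, -1.32 to -1.03 for Hsd17b4, -0.86 to -0.68 for Scp2, -1.03 to -0.32 for Slc27a5, -1.11 to -0.86 for Slc27a2 and -0.94 to -0.56 for Baat. Lower calls then numbered 1 to 5 among side chain and conjugation genes, 450 to 1620 among all probes, 2 to 5 among sterol ring enzymes, 4 to 12 among peroxisomal oxidation partners, 2 to 7 among peroxisome import genes, 1 to 3 among taurine and glycine genes, 3 to 6 among bile acid carriers, 1 to 6 among regulators, 0 to 7 among hepatocyte markers, 0 to 1 among endothelial markers and 0 to 2 among lymphocyte markers, and higher calls 1514 to 2851 among all probes, 1 to 3 among sterol ring enzymes, 0 to 1 among taurine and glycine genes, 0 to 2 among macrophage markers and 0 to 1 among lymphocyte markers. Gap differences ran over -0.83 to -0.22 for Amacr, -0.50 to -0.10 for Hsd17b4, -0.42 to -0.02 for Slc27a2, -0.53 to 0.10 for Acox2, -0.0727 to 0.11 for Scp2 (lowest without fibrosis array 3), -0.0592 to 0.33 for Slc27a5 (lowest without fibrosis array 2) and -0.33 to 0.40 for Baat.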
